A study of Oryza sativa with 6 samples.

Results

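The CCCH zinc finger proteins of rice were followed on 6 Agilent 2-colour arrays of leaf RNA. A gene was taken as a member when the gene table lists for it a synonym of the form OsC3H or C3H followed by a number. This rule uses no measured value, though it was chosen with earlier results of these data known. The table held 53 such genes, and 46 of them had a probe assigned to a single gene, giving 55 CCCH probes among 17727 tested probes. By gene, that is 46 of 15702 identifiers with a tested single-gene probe. The genes OsC3H14, OsC3H24, OsC3H31, OsC3H38, OsC3H45, OsC3H56 and OsC3H67 had no such probe and are not analysed here. All 55 probes passed the only filter, which removed spots at exactly 0 on every array.

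Drought-stressed leaves were compared with well-watered leaves of the same genotype in Apo, an upland-type rice that the submitters call tolerant of drought, and in IR64, a cultivar that they call susceptible. Plants grew in a greenhouse. Water was withheld from day 33 after sowing and stressed leaves were taken 5 days later by the sample labels and 6 days later by the series text, while control leaves were harvested on day 37. Each genotype had 3 arrays, every array pairing drought RNA in Cy3 with control RNA in Cy5. Because the dyes were never exchanged, treatment and dye cannot be separated in the ratios of either genotype or in their mean. Every test of such a ratio below carries this limit, for small ratios and large ones alike. A dye effect specific to a probe was not tested. Nothing states that the replicates are separate plants, so the p-values speak for the spread between these arrays alone, and that spread may be technical.

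CCCH zinc fingers hold a zinc ion between cysteines and a histidine. Many proteins with this fold bind RNA rather than DNA, and members of the family are known to act in mRNA decay, splicing, 3′ end processing and translation, while some work as transcriptional regulators in the nucleus. In plants several tandem zinc finger members have been tied to abscisic acid, gibberellin and jasmonate responses, leaf senescence and tolerance of drought or salt.

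Every value below is a deposited log ratio per probe, taken as log10 because Feature Extraction writes that base. Which RNA is the numerator is not stated, so ratios are called positive or negative. Under the software's usual order, Cy5 over Cy3, a positive ratio would mean more RNA in well-watered leaves. The 5 probes for the dehydrins RAB16B, RAB16C, RAB16D, rab25 and Dhn1, whose genes are textbook examples of induction by water loss, were all positive past the threshold in both genotypes, with median ratios of 1.22 in Apo and 1.27 in IR64. The direction is therefore not settled here, and CCCH ratios are set beside the dehydrins only as lying on the same or the other side of 0. In whole leaves a change in the share of a cell type and a change of RNA per cell cannot be told apart.

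The IR64 replicate 1 array stood apart from its group. Over all tested probes its correlation was 0.832 to 0.894 with Apo arrays, but 0.755 and 0.767 with IR64 replicates 2 and 3, which correlated with each other at 0.938. Over the 55 CCCH probes its correlation was 0.832 to 0.881 with Apo arrays, but 0.731 and 0.766 with the other IR64 arrays. It lay nearer to the Apo mean than to the mean of IR64 replicates 2 and 3 at 34 of the 55 CCCH probes, against 62.3% of all tested probes. Counts for IR64 and for the genotype difference are therefore given with and without this array, as are the calls that change.

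The first question was which CCCH genes had ratios away from 0 in Apo. The largest ratio belonged to OsC3H37. OsC3H35 and OsC3H10 came next, then OsC3H2, OsC3H54 and OsC3H32, and all of these were positive. Called probes, those past an adjusted p of 0.05 in limma over all tested probes, numbered 25 of 55, with 22 positive and 3 negative. The background was 50.1% of all tested probes called in Apo, 24.5% positive and 25.6% negative, so the CCCH probes were called about as often as other probes but lay mostly on the positive side, at 40% positive and 5.45% negative. Counted by gene, 19 of 46 genes had a positive call and 3 a negative call, against 26.1% and 27.5% of all genes tested. The median ratio of the 55 probes was 0.0669, against -0.00318 over all tested probes. In the fit without IR64 replicate 1, which changes the shared estimate of spread, 31 CCCH probes were called in Apo, 25 positive and 6 negative, against 57.4% of all tested probes, 28.4% positive and 29.1% negative.

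**Figure D1:**
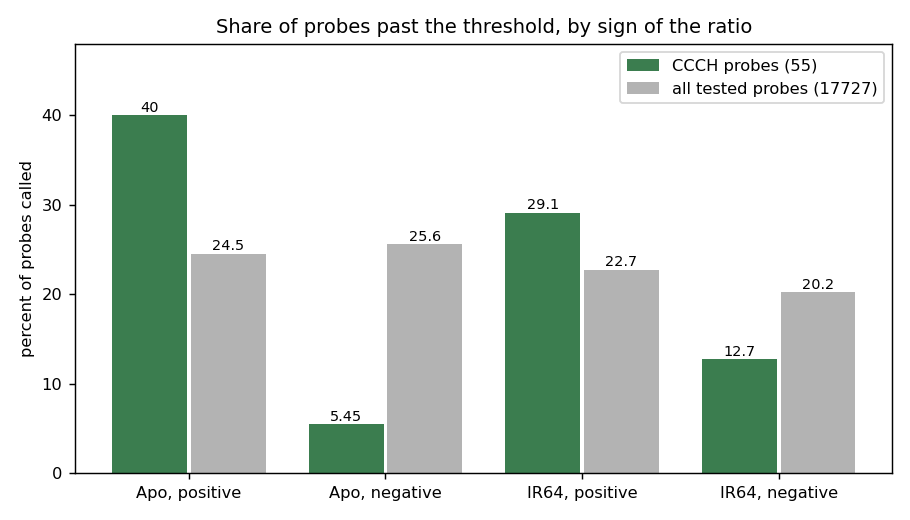
Share of probes past the adjusted threshold, in percent, by sign of the ratio, for the 55 CCCH probes (green) and all 17727 tested probes (grey), with Apo in the left pairs of bars and IR64 in the right pairs. Positive CCCH calls stand at 40% in Apo and 29.1% in IR64, against 24.5% and 22.7% of all tested probes.

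In IR64 the largest ratios were those of OsC3H37, OsC3H35 and OsC3H54, and fewer CCCH probes were called positive and more negative. Of 55 probes 23 were called, 16 positive and 7 negative, against 43.0% of all tested probes called, 22.7% positive and 20.2% negative. The shares among CCCH probes were 29.1% positive and 12.7% negative, with a median ratio of 0.0399 against 0.00 over all tested probes. Counted by gene, 15 had a positive call and 6 a negative call, against 24.7% and 21.7% of all genes tested. Same-numbered arrays of both genotypes deviated together, and a fit blocked on replicate number called 29 CCCH probes in IR64, 18 positive and 11 negative, against 48.7% of all tested probes, 25.5% positive and 23.1% negative. The same blocked fit called 29 in Apo, 24 positive and 5 negative, against 55.3%, 26.6% and 28.7%. Without IR64 replicate 1 there were 27 calls in IR64, 19 positive and 8 negative, against 47.7%, 25.9% and 21.8%. The calls gained were those for OsC3H8 (0.114, adjusted p = 0.0186), OsC3H28 (0.150, 0.0140), OsC3H39 (0.454, 0.00107), OsC3H59 (0.127, 0.0462) and OsC3H20 on the positive side, and OsC3H15 probe 2 and OsC3H41 on the negative side. The calls lost were those for OsC3H2, OsC3H16 and OsC3H33 probe 2. For the mean of both genotypes 30 CCCH probes were called, 23 positive and 7 negative, against 58.1% of all tested probes, 29.3% positive and 28.8% negative.

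On all arrays, the CCCH probes called in both genotypes had the same sign in each. Positive calls in both genotypes were found for 14 CCCH probes, against 15.7% of all tested probes, and a negative call in both for 1, against 15.1%. A further 10 probes were called in Apo and not in IR64, against 18.8% of all tested probes, and 8 in IR64 and not in Apo, against 11.6%. No CCCH probe was called with opposite signs, a class that held 0.558% of all tested probes. Without IR64 replicate 1 there were 3 such CCCH probes, against 4.16%, those for OsC3H8 and OsC3H39, negative in Apo and positive in IR64, and OsC3H15 probe 2, positive in Apo and negative in IR64. On all arrays 22 were called in neither genotype, against 38.2%. Ratios were positive on all 6 arrays for 18 probes, against 23.9% of all tested probes, and negative on all 6 for 8, against 24.0%. Across the 55 probes the Apo and IR64 means correlated at 0.836, beside 0.829 over all tested probes. Without IR64 replicate 1 these correlations were 0.746 and 0.722. On all arrays the CCCH correlation was 0.623 without OsC3H35, OsC3H37 and OsC3H54. Those are the 3 genes with the highest ratios averaged over both genotypes, chosen after their values were seen. The probes of a gene share its transcript, so these points are not independent.

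**Figure D2:**
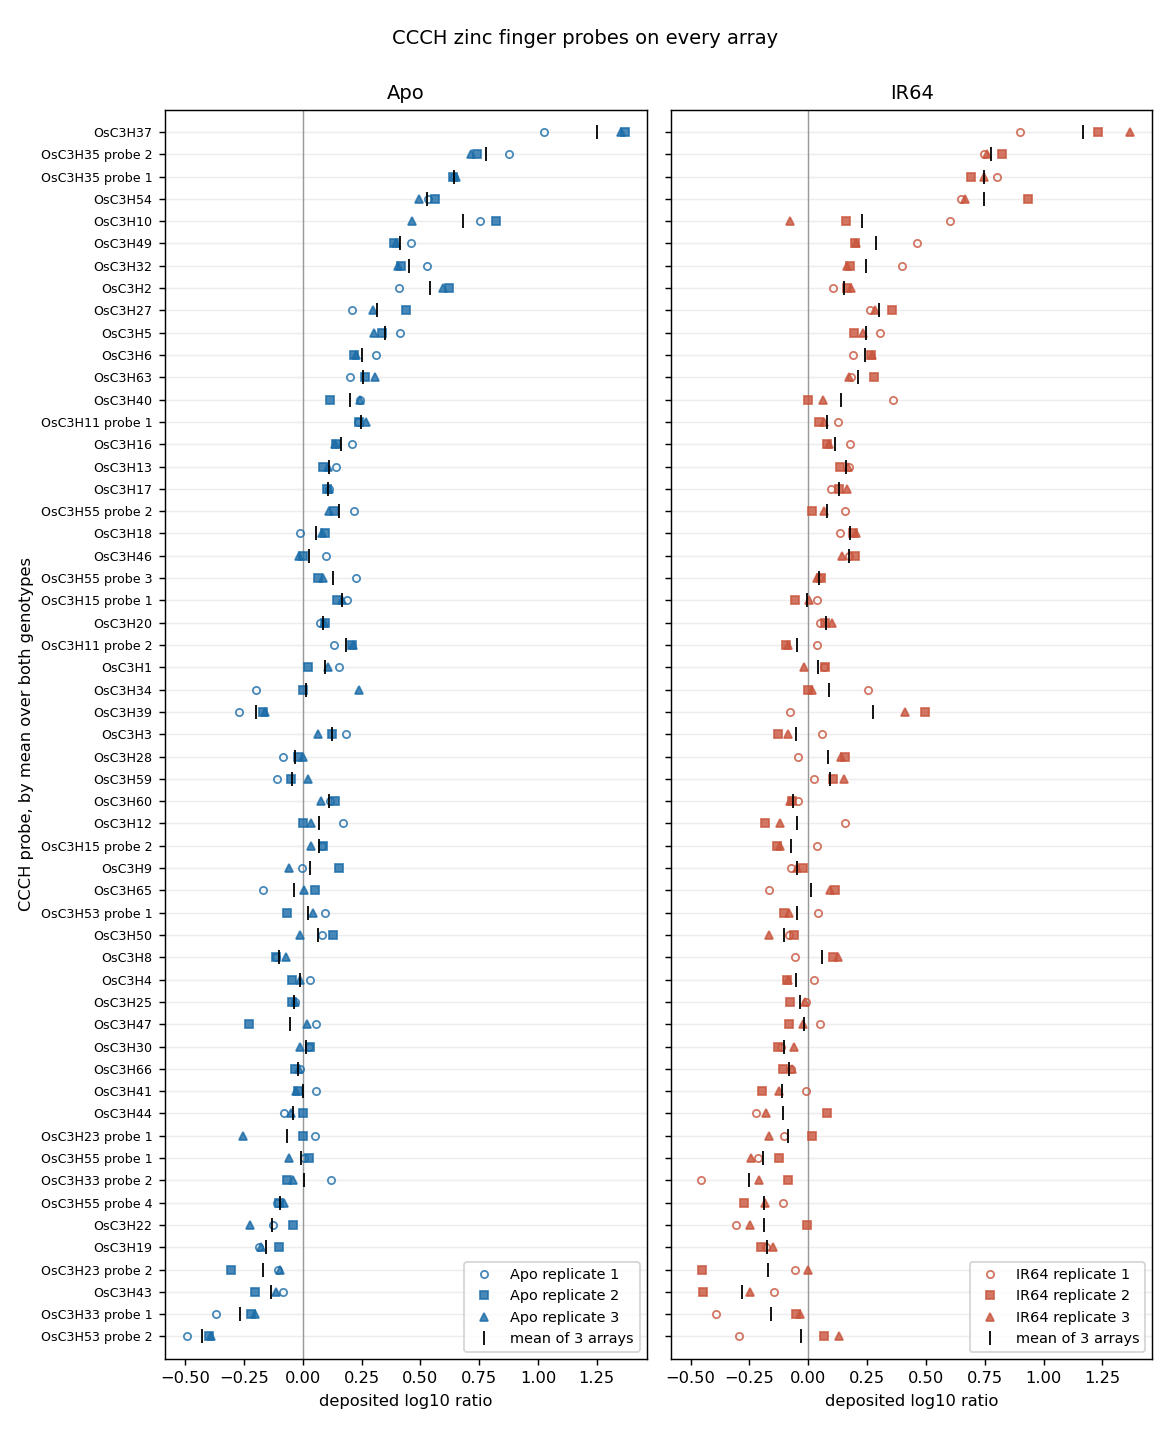
Deposited log10 ratio of each of the 55 CCCH probes on each array, Apo on the left and IR64 on the right, with 1 symbol per replicate and a black tick at the mean of 3 arrays. Probes are ordered by their mean over both genotypes, from OsC3H37 at the top to OsC3H53 probe 2 at the bottom, and open circles mark replicate 1 of each genotype.

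OsC3H37 (LOC4339379, chromosome 5) had the largest ratios of the family. They were 1.03, 1.37 and 1.35 on the Apo arrays and 0.901, 1.23 and 1.37 on the IR64 arrays. Both genotypes overlapped, and replicate 1 was the lowest array in each. The means were 1.25 ± 0.194 in Apo and 1.17 ± 0.239 in IR64 (SD, n = 3 each), ratios of 17.8 and 14.7 if the base is 10, with limma adjusted p = 0.000162 and 0.000289. The difference between the genotypes was 0.0833 ± 0.144 (SE, adjusted p = 0.725). For scale, the 5 dehydrin probes had median ratios of 1.22 in Apo and 1.27 in IR64. The lowest of them in both genotypes was Dhn1, at 0.935 ± 0.191 in Apo and 0.685 ± 0.0280 in IR64.

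OsC3H35 (LOC4338037, chromosome 5) was measured by a pair of probes, both called positive in both genotypes. Probe 1 read 0.643, 0.638 and 0.650 in Apo and 0.803, 0.692 and 0.747 in IR64. Probe 2 read 0.876, 0.742 and 0.717 in Apo and 0.747, 0.824 and 0.759 in IR64. In Apo all arrays of probe 1 lay below all arrays of probe 2. Every array was positive, and the genotypes overlapped on probe 2 but not on probe 1, where all IR64 arrays were higher. The probe means were 0.644 ± 0.00592 and 0.778 ± 0.0857 in Apo and 0.747 ± 0.0557 and 0.777 ± 0.0416 in IR64, which gives ratios between 4.40 and 6.00 if the base is 10. These probes had the smallest adjusted p of the family in each genotype, 2.76e-05 and 3.13e-05 in Apo and 2.04e-05 and 4.26e-05 in IR64 by limma. Neither probe passed the threshold for the genotype difference (adjusted p = 0.193 and 0.988).

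OsC3H54 (LOC4344566, chromosome 8) was positive on every array, with 0.532, 0.561 and 0.492 in Apo and 0.648, 0.933 and 0.665 in IR64. The groups did not overlap, and IR64 was higher. The means were 0.529 ± 0.0345 and 0.749 ± 0.160, called in both genotypes by limma (adjusted p = 0.000539 and 0.000189), while the difference of -0.220 ± 0.0827 (SE) had an adjusted p = 0.155.

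OsC3H2 (LOC4327304, chromosome 1), also named OsDOS, is a nuclear CCCH protein known in rice for delaying leaf senescence. Its ratios were 0.408, 0.621 and 0.597 in Apo and 0.104, 0.166 and 0.182 in IR64. All Apo arrays lay above all IR64 arrays, and the lowest array of each genotype was replicate 1. The mean was 0.542 ± 0.117 in Apo, a ratio of 3.48 if the base is 10, and 0.151 ± 0.0410 in IR64, a ratio of 1.41. Both were called by limma (adjusted p = 0.000215 and 0.0417), but the IR64 call was lost without IR64 replicate 1 (adjusted p = 0.0567), IR64 replicate 2 (0.153), IR64 replicate 3 (0.166) or Apo replicate 3 (0.0672), with equal spread of the arrays (0.0534) and with trend and robust eBayes (0.0523). OsC3H2 was the only CCCH probe called for the difference between genotypes, described further below.

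OsC3H10 (LOC4327885, chromosome 1), overproduction of which has been reported to raise drought tolerance in rice, was positive in Apo at 0.754, 0.821 and 0.467. In IR64 it read 0.602 on replicate 1, 0.162 on replicate 2 and -0.0790 on replicate 3. The first IR64 array fell within the Apo range and the other two below it. The means were 0.681 ± 0.188 in Apo (adjusted p = 0.00509 by limma) and 0.228 ± 0.346 in IR64 (adjusted p = 0.197), and the IR64 mean without replicate 1 was 0.0414.

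OsC3H32 (LOC4337362) and OsC3H49 (LOC4342926) showed a similar layout of arrays. OsC3H32 read 0.526, 0.417 and 0.406 in Apo and 0.397, 0.177 and 0.165 in IR64. OsC3H49 read 0.460, 0.386 and 0.396 in Apo and 0.462, 0.198 and 0.201 in IR64. In each gene IR64 replicate 1 was far above the other IR64 arrays. It lay just below all Apo arrays for OsC3H32 and just above them for OsC3H49. Both genes were called in Apo, at 0.450 ± 0.0664 and 0.414 ± 0.0403, and in IR64, at 0.246 ± 0.131 and 0.287 ± 0.151, and stayed called in IR64 without replicate 1 at means of 0.171 and 0.200 (limma adjusted p = 0.0171 and 0.00462). A fit of the IR64 arrays alone called neither (0.0543 and 0.0504).

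OsC3H4, OsC3H5 and OsC3H6 are near neighbours on chromosome 1, with 3 protein-coding genes between the first pair and 1 between the second. OsC3H5 (LOC4326230) read 0.414, 0.339 and 0.301 in Apo and 0.307, 0.193 and 0.231 in IR64. OsC3H6 (LOC4326236) read 0.311, 0.216 and 0.224 in Apo and 0.190, 0.268 and 0.272 in IR64. Both were called positive in both genotypes, OsC3H5 at 0.351 ± 0.0577 and 0.244 ± 0.0579 and OsC3H6 at 0.250 ± 0.0525 and 0.243 ± 0.0462, with limma adjusted p between 0.000433 and 0.00259. OsC3H4 was not called, at -0.0100 ± 0.0375 in Apo and -0.0503 ± 0.0649 in IR64. The adjacent genes OsC3H22 and OsC3H23 on chromosome 3, with no protein-coding gene between them, had negative means. OsC3H22 averaged -0.130 ± 0.0903 in Apo and -0.186 ± 0.159 in IR64; neither mean was called, and it was called in IR64 with the replicate block (adjusted p = 0.0220). Of the probes for OsC3H23, the second averaged -0.169 ± 0.118 in Apo, with -0.170 ± 0.246 in IR64, and was called in both genotypes with the block only (adjusted p = 0.0319 and 0.0358). The first averaged -0.0666 ± 0.164 in Apo and -0.0851 ± 0.0934 in IR64, with arrays on both sides of 0. It was called in neither genotype, also not with the block (limma adjusted p = 0.241 and 0.164).

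OsC3H27 (LOC4335690, chromosome 4) was another of the 10 called genes with the most positive means. It read 0.210, 0.438 and 0.297 in Apo and 0.262, 0.356 and 0.284 in IR64. The genotypes overlapped fully, with means of 0.315 ± 0.115 and 0.301 ± 0.0492 and a difference of 0.0145 ± 0.0675 (SE, limma adjusted p = 0.904). The remaining genes called positive in both genotypes were OsC3H63, OsC3H16, OsC3H17 and OsC3H13, all chosen for mention after their values were seen except OsC3H13, which the gene table also names bip105. Their means ran from 0.109 to 0.258 in Apo and from 0.115 to 0.210 in IR64, ratios of less than 2 if the base is 10. OsC3H16 lost its IR64 call without IR64 replicate 1 (adjusted p = 0.0632), and OsC3H13 its Apo call without Apo replicate 1 (0.0661) or 3 (0.0818).

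**Figure D3:**
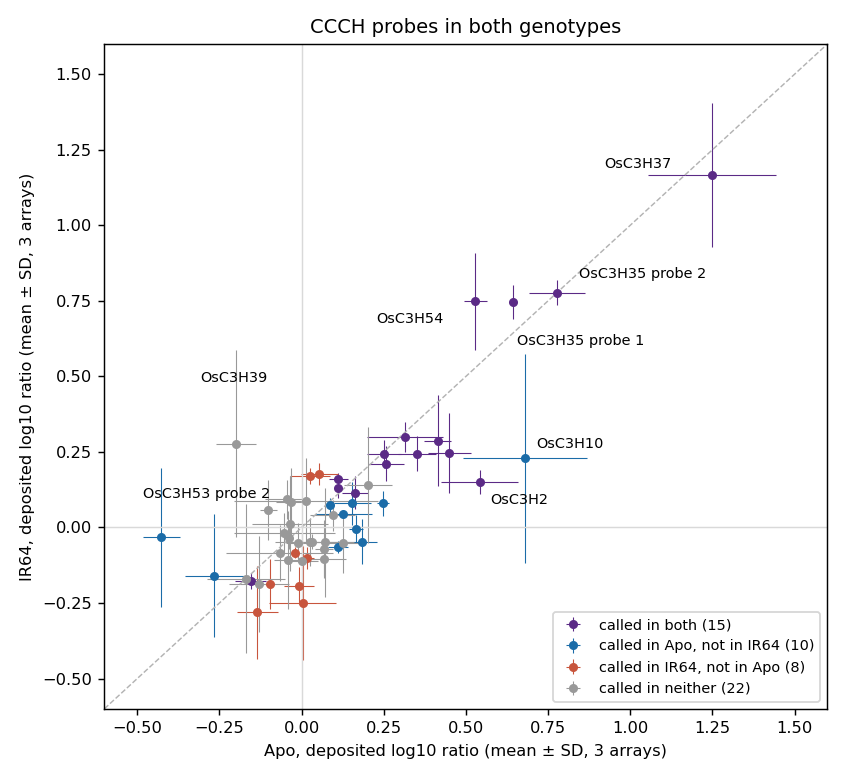
Mean log10 ratio of each CCCH probe in Apo (horizontal) and IR64 (vertical), with bars for the SD of 3 arrays, coloured by where the probe was called, and a dashed line of equal values. OsC3H37 lies near the line at 1.25 and 1.17, whereas OsC3H2 and OsC3H10 lie below it and OsC3H54 above it.

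Negative ratios were fewer and smaller. OsC3H19 (LOC4331248, chromosome 2) had the only CCCH probe called negative in both genotypes. It read -0.187, -0.102 and -0.176 in Apo and -0.179, -0.202 and -0.149 in IR64. All 6 arrays fell in the same narrow range, with means of -0.155 ± 0.0462 and -0.177 ± 0.0265 (limma adjusted p = 0.00651 and 0.00484). With Apo replicate 3 left out it was not called in Apo (adjusted p = 0.0508).

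OsC3H43 (LOC4341164, chromosome 6) read -0.0851, -0.205 and -0.116 in Apo and -0.146, -0.448 and -0.249 in IR64. It was negative on every array and called in IR64 at -0.281 ± 0.154 (limma adjusted p = 0.00982). In Apo it stood at -0.135 ± 0.0623 and was not called (adjusted p = 0.101), but was with the replicate block (adjusted p = 0.0325). A fit of each genotype alone called it in Apo (0.0370) and not in IR64 (0.0538). OsC3H66 (LOC4352041) had small negative ratios on all arrays, -0.0101, -0.0341 and -0.0139 in Apo and -0.0742, -0.105 and -0.0695 in IR64. The Apo arrays lay nearer to 0 without overlap, and only the IR64 mean of -0.0830 ± 0.0195 was called (limma adjusted p = 0.0468, against 0.58 in Apo). That call was lost without any 1 array other than IR64 replicate 1 (0.0551 to 0.180).

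Members with a second published name covered several molecular roles. OsC3H60 (LOC9268567, chromosome 9) is U2AF35A, the small subunit of the splicing factor that recognises the 3′ splice site. Its ratios were 0.114, 0.139 and 0.0785 in Apo and -0.0433, -0.0705 and -0.0790 in IR64. It was the only CCCH probe positive on all Apo arrays and negative on all IR64 arrays, a layout found at 1.71% of all tested probes. The reverse layout was seen at 0 CCCH probes, against 2.34%. The Apo mean of 0.111 ± 0.0304 was called by limma (adjusted p = 0.0174, and 0.0557 to 0.0884 with any 1 Apo array left out), and the IR64 mean of -0.0643 ± 0.0187 was not (adjusted p = 0.113).

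OsC3H20 (LOC4331372, chromosome 3) is Ehd4, a promoter of flowering in rice. It read 0.0749, 0.0951 and 0.0905 in Apo and 0.0517, 0.0697 and 0.0998 in IR64. The arrays lay close together and overlapped between genotypes, with a call in Apo at 0.0868 ± 0.0106 (limma adjusted p = 0.0366) and none in IR64 at 0.0737 ± 0.0243 (adjusted p = 0.0702, 0.0382 without IR64 replicate 1). The Apo call was lost without any 1 array other than IR64 replicate 1 (0.0586 to 0.155). These ratios are 1.22 and 1.19 if the base is 10.

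OsC3H46 (LOC4341994, chromosome 6) is LIC, a regulator of leaf and tiller angle that takes part in brassinosteroid responses. It read 0.0968, 0.00 and -0.0157 in Apo and 0.174, 0.197 and 0.143 in IR64. All IR64 arrays were higher than all Apo arrays. IR64 was called at 0.171 ± 0.0271 (limma adjusted p = 0.00754) and Apo was not at 0.0271 ± 0.0609 (adjusted p = 0.533), with a difference of -0.144 ± 0.0475 (SE, adjusted p = 0.127).

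OsC3H41 (LOC4340884, chromosome 6) is MKRN, a makorin, which joins CCCH fingers with a RING domain of the kind found in ubiquitin ligases. It was near 0 in Apo, at 0.0576, -0.0221 and -0.0284, and negative on each IR64 array, at -0.0100, -0.196 and -0.126. Its IR64 mean of -0.111 ± 0.0939 was not called on all arrays (limma adjusted p = 0.0787) but was with the replicate block (0.0352) and without IR64 replicate 1 (0.0166). OsC3H12, which takes part in resistance of rice to bacterial blight, and OsC3H47, overproduction of which has been reported to raise drought tolerance, were not called in either genotype. OsC3H12 read 0.172, 0.00 and 0.0373 in Apo and 0.156, -0.186 and -0.118 in IR64. OsC3H47 read 0.0558, -0.229 and 0.0167 in Apo and 0.0501, -0.0836 and -0.0220 in IR64, so its arrays fell on both sides of 0 in each genotype.

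Of the 46 genes, 7 had several probes, 16 probes in all, and these did not always agree. The 4 probes for OsC3H55 (LOC4344611, chromosome 8) fell into opposite signs. Probes 2 and 3 were called positive in Apo, at 0.155 ± 0.0554 and 0.127 ± 0.0874 (limma adjusted p = 0.0159 and 0.0317), and were not called in IR64, at 0.0795 ± 0.0707 and 0.0462 ± 0.00959. The Apo call of probe 2 was lost without Apo replicate 1 or 2, and that of probe 3 without Apo replicate 1 or 3 or IR64 replicate 2 or 3. Probes 1 and 4 were called negative in IR64, at -0.193 ± 0.0610 and -0.188 ± 0.0828 (adjusted p = 0.00590 and 0.00809), and were not called in Apo, at -0.00858 ± 0.0459 and -0.0967 ± 0.0170. Probe 4 was called negative in Apo without IR64 replicate 1 (limma adjusted p = 0.0250), in a fit of the Apo arrays alone (0.0276) and with array weights (0.00907). The spread between the OsC3H55 probes was 0.251 in Apo and 0.272 in IR64, more than the SD of any of them. No single value is therefore given for the gene.

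For OsC3H53 (LOC4344312, chromosome 7), probe 2 had the most negative mean of the family in Apo. It read -0.491, -0.399 and -0.390 in Apo and -0.296, 0.0677 and 0.130 in IR64, where replicate 1 lay near the Apo arrays and the others were positive. The Apo mean of -0.427 ± 0.0560 was called (limma adjusted p = 0.00494), while probe 1 stood at 0.0241 ± 0.0826 in Apo and was not. OsC3H33 (LOC4337692, chromosome 5) differed between its probes as well. Probe 1 was called negative in Apo at -0.265 ± 0.0902 (adjusted p = 0.0260), with -0.369, -0.222 and -0.204 in Apo and -0.393, -0.0504 and -0.0341 in IR64. That call was lost without Apo replicate 1 (0.142), 2 (0.0728) or 3 (0.0653) and with the probes of a gene averaged (0.149). Probe 2 stood at 0.00399 ± 0.102 in Apo and was called negative in IR64 at -0.250 ± 0.189 (adjusted p = 0.0333), a call lost with the block (0.0735) and without IR64 replicate 1 (0.0917). With the block, probe 1 was called in IR64 too (adjusted p = 0.0334).

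The probes for OsC3H11 and those for OsC3H15 were on the same side of 0 in Apo. In both genes every Apo array of probe 1 lay above every Apo array of probe 2. The OsC3H11 (LOC4327416, chromosome 1) probes were both called in Apo, at 0.248 ± 0.0185 and 0.185 ± 0.0449 (limma adjusted p = 0.000763 and 0.00701), and neither was called in IR64, at 0.0795 ± 0.0423 and -0.0465 ± 0.0732. Of the OsC3H15 (LOC4329092, chromosome 2) probes the first was called in Apo at 0.166 ± 0.0213 (adjusted p = 0.00459), with 0.188, 0.145 and 0.166, and stood at -0.00496 ± 0.0462 in IR64, with 0.0366, -0.0546 and 0.00315. Its second probe averaged 0.0672 ± 0.0277 in Apo and -0.0712 ± 0.0956 in IR64 and was called in neither on all arrays. Without IR64 replicate 1 it was called in both, positive in Apo (adjusted p = 0.0438) and negative in IR64 at -0.126 (adjusted p = 0.0139).

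**Figure D4:**
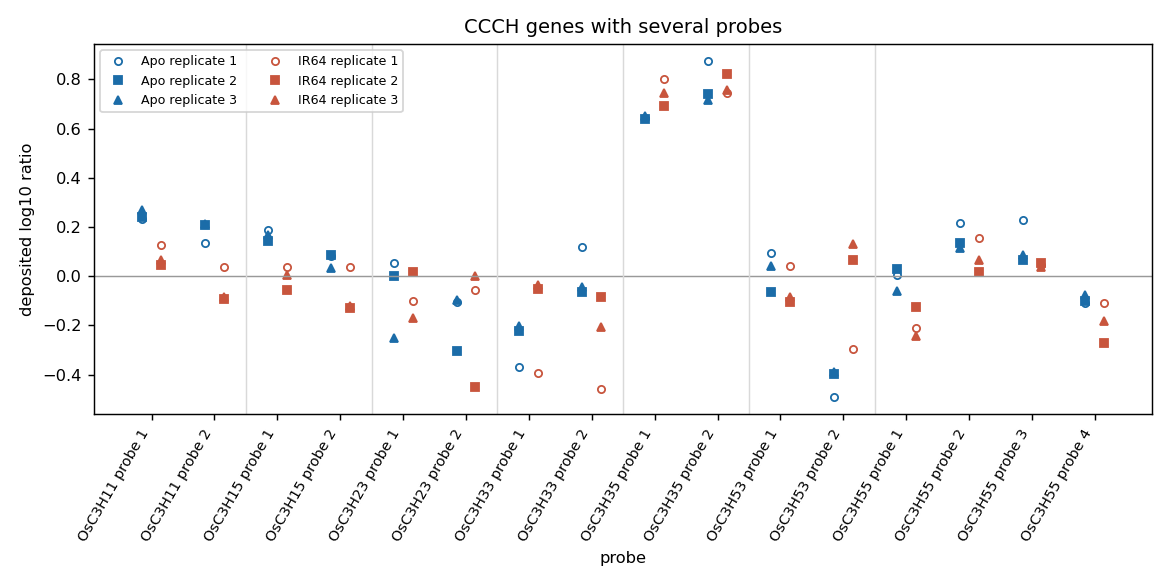
Deposited log10 ratio on each array for the 16 probes of the 7 CCCH genes with several probes, Apo in blue left of IR64 in red. The probes for OsC3H35 stay together between 0.638 and 0.876, whereas those for OsC3H55 and OsC3H53 lie on both sides of 0.

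The last question was whether Apo and IR64 had different ratios, a comparison in which a dye effect shared by all arrays cancels. On all arrays 1 of 55 CCCH probes was called, against 2.02% of all tested probes, 0.773% with Apo higher and 1.25% with Apo lower. With the replicate block it was again 1, against 5.36%. The probe was that for OsC3H2 in both fits, with a difference of 0.391 ± 0.0669 (SE, Apo minus IR64, limma adjusted p = 0.0464). This call rested on the threshold: the adjusted p was 0.0401 with the replicate block and 0.0198 without IR64 replicate 1, but between 0.0729 and 0.194 when any other array was left out and between 0.0548 and 0.0797 under 5 other settings. The next smallest adjusted p belonged to OsC3H60 (0.0737, difference 0.175 ± 0.0401), OsC3H11 probe 2 (0.0741, 0.232 ± 0.0535) and OsC3H11 probe 1 (0.0853, 0.168 ± 0.0423). Then came OsC3H15 probe 1 (0.0855, 0.171 ± 0.0434), OsC3H55 probe 1 (0.0969, 0.184 ± 0.0504) and OsC3H53 probe 2 (0.105, -0.394 ± 0.113). The arrays of both genotypes did not overlap at 21 of 55 CCCH probes, against 34.5% of all tested probes. Apo was higher at 13 of these, against 15.3%, and lower at 8, against 19.1%. Without IR64 replicate 1 there was no overlap at 38, against 63.0%.

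Without IR64 replicate 1 there were 17 CCCH probes called for the difference, 12 with Apo higher and 5 with Apo lower, against 33.6% of all tested probes called, 13.9% with Apo higher and 19.7% with Apo lower. OsC3H39 (LOC4339693, chromosome 5), named after its values were seen, had the largest difference in size. It read -0.271, -0.167 and -0.160 in Apo and -0.0755, 0.496 and 0.411 in IR64. IR64 replicate 1 sat beside the Apo arrays and the others far above them. The difference was -0.653 ± 0.0523 (SE, limma adjusted p = 0.00341) without that array and -0.477 ± 0.147 (adjusted p = 0.114) with it.

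OsC3H10 followed in size, with 0.639 ± 0.132 without IR64 replicate 1 (limma adjusted p = 0.0216) against 0.452 ± 0.182 with it (0.173), and then OsC3H53 probe 2, with -0.525 ± 0.0471 (0.00397). OsC3H32 and OsC3H49, at 0.279 ± 0.0483 and 0.215 ± 0.0374, were also called on the smaller set (adjusted p = 0.0139 and 0.0140), as were both probes for OsC3H11, both for OsC3H15, and OsC3H60 at 0.185 ± 0.0342 (0.0162). The other calls with Apo higher were OsC3H3 (0.233, 0.0199), OsC3H41 (0.163, 0.0462), and OsC3H12 (0.222), which lay just inside the threshold. Those with Apo lower were OsC3H8 (-0.215, 0.0108), OsC3H28 (-0.183, 0.0244) and OsC3H33 probe 1 (-0.223, 0.0429), each given as the difference and its limma adjusted p. OsC3H37, both OsC3H35 probes, OsC3H54 and OsC3H27, which are among the most positive members, were not called for the difference with or without this array. Whether IR64 replicate 1 or the other IR64 arrays better represent the genotype was not tested.

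**Figure D5:**
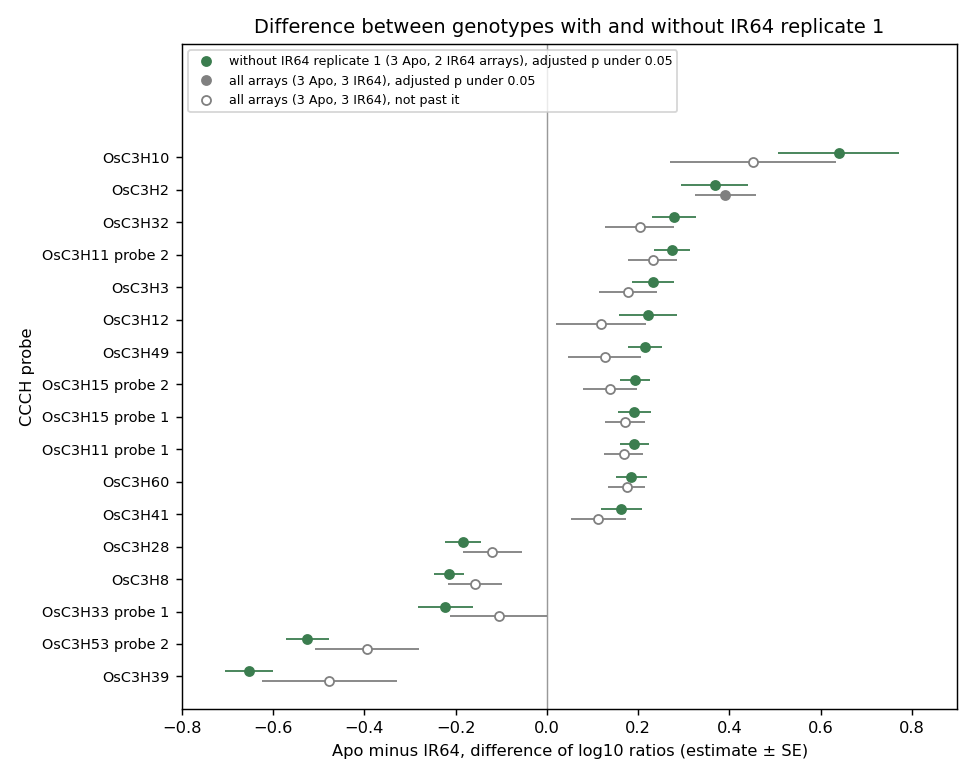
Apo minus IR64 difference of log10 ratios (estimate ± SE) for the 17 CCCH probes called on either set of arrays, in green without IR64 replicate 1 and in grey on all arrays, with filled points past the adjusted threshold. OsC3H2 alone is filled on all arrays, at 0.391, and OsC3H39 moves to -0.653 without IR64 replicate 1, against -0.477 with it.

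Markers of other tissues were looked at beside these results, as ratios only, since channel levels were not used and the leaf label could not be checked against marker levels. Of 3 mesophyll probes, those for the light-harvesting genes CAB2R and RCABP69 were called negative in both genotypes and CAB1R in neither, with list medians of -1.08 in Apo and -0.795 in IR64. Vascular and wall markers had 2 positive and 1 negative call of 4 in Apo and 2 positive calls in IR64. Seed storage markers had 1 positive and 1 negative call of 4 in Apo and none in IR64, and the single root probe (Lsi1) and both anther probes were not called. Their part in the CCCH ratios was not tested.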

How the data were processed

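The authors deposited 1 log ratio per spot and array, taken here as log10, for 22575 spots on 6 arrays. Feature Extraction 8.1 is named in the submitters' processing notes. For the base and sign of the ratio, and for any dye normalization, background step or centring, the answer is not given in the sources used here. Array medians over all spots lay between 0.00 and 0.00201. Channel intensities were not used, so signal over background is not known, and precision is limited by how many arrays there are. A ratio of exactly 0 occurred on at least 1 array for 5 CCCH probes.

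The platform annotation gave 17839 spots 1 gene and 21 spots several; all 17839 identifiers matched the gene table of assembly ASM3414082v1, used for names and gene order only. After removal of 133 annotated spots at 0 on all arrays, 17727 probes were fitted without further normalization. Limma 3.58.1 in R 4.3.3 fitted 1 mean per genotype to all 6 arrays (lmFit, eBayes), with Benjamini-Hochberg adjustment over all tested probes at 0.05. The script was tested on simulated ratios. Python 3.11.15 with pandas 2.3.3 and matplotlib 3.10.9 made tables and figures. SD is over arrays, SE from the fit.

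Deviations from the genotype means correlated between same-numbered arrays at 0.322, 0.261 and 0.340, so the replicate numbers were taken to pair the arrays and a replicate block was run as an alternative. The genes chosen for naming were the 10 most positive and 6 most negative called genes by mean over both genotypes. To these were added the 6 with the smallest p for the difference, those with a second published name and those whose probes had calls of opposite sign. Values per array are given in the text for all of these except OsC3H11, OsC3H13 and OsC3H55, which appear there as means or ranges of means. Other genes are named where a count or comparison singles them out after their values were seen. Members, lists and tests were chosen with earlier results of these data known. A planned sorting of members by protein motif and a promoter motif search were not run. Alternatives tried were centring, scaling and quantile normalization of arrays, filters on zeros, eBayes with trend and robust options, array weights, gene means, all spots, separate fits, the block and leaving out each array.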

Additional observations from a re-analysis of the deposited data

Results flagged for a closer look

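OsC3H2 (OsDOS) was picked out because its ratio differed between the genotypes by limma's test, with 0.542 ± 0.117 in Apo and 0.151 ± 0.0410 in IR64 (SD, n = 3 each) and a difference of 0.391 (adjusted p = 0.0464). Ratios were higher on 3 of 3 Apo arrays than on any IR64 array, a layout found at 15.3% of all tested probes. The call was lost when any array other than IR64 replicate 1 was left out (limma adjusted p = 0.0729 to 0.194). It was also lost under several other settings (0.0548 to 0.0797).

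OsC3H60 (U2AF35A) was picked out because its ratios were positive on all 3 Apo arrays and negative on all 3 IR64 arrays. The opposite signs themselves were not tested, and the difference of 0.175 did not pass limma's test over all probes (adjusted p = 0.0737; 0.0162 without IR64 replicate 1).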

How the results depend on the processing

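The count of CCCH probes called in Apo was 25, between 18 and 31 with any 1 array left out, and within 1.5 times under every alternative. The count in IR64 was 23, between 17 and 27 with 1 array left out, 15 in a fit of the IR64 arrays alone (12 positive, 3 negative; 30.1% of all tested probes were called) and 39 with array weights (22 positive, 17 negative; 59.7% of all), which gave IR64 replicate 1 the lowest weight, 0.148, and Apo replicate 3 the highest, 5.05. The mean of both genotypes had 30 calls, and 24 to 31 with 1 array left out. With the replicate block 29 probes were called in Apo, 29 in IR64 and 1 for the difference; the calls it changed beyond those given above were OsC3H3 and OsC3H40 in Apo and OsC3H39, OsC3H50 and OsC3H59 in IR64, all gained. The single call for the difference, OsC3H2, became 0 with equal spread of the arrays, quantile normalization, no filter on zeros, eBayes with trend and robust options, or all spots, and 28 with array weights (48.3% of all tested probes); with 1 array left out it was 0 to 17, the 17 without IR64 replicate 1. Median ratios stayed positive, between 0.0584 and 0.0832 in Apo and 0.0238 and 0.0399 in IR64 with 1 array left out.

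Over 58 values for the named genes and all alternatives, calls were lost 53 times, gained 26 times and the sign turned 13 times. Lost calls were those of OsC3H2, OsC3H13, OsC3H19, OsC3H20, OsC3H32, OsC3H33, OsC3H43, OsC3H49, OsC3H55, OsC3H60 and OsC3H66. The following turned sign; none of them was called in that genotype in the original fit. Averaging the probes of a gene put OsC3H55 at 0.0441 in Apo and -0.0637 in IR64 and OsC3H11 at 0.0165 in IR64. Array weights put OsC3H53 probe 2 at 0.0918 in IR64, OsC3H41 at -0.0211 in Apo and OsC3H46 at -0.00501 in Apo. With 1 array left out, OsC3H53 probe 2 in IR64 ran from -0.114 to 0.0988 and OsC3H15 probe 1 in IR64 from -0.0257 to 0.0199; in Apo OsC3H55 probe 1 ran from -0.0272 to 0.0171, OsC3H41 from -0.0252 to 0.0177 and OsC3H46 from -0.00783 to 0.0484. The cause was not tested.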

Other observations

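Other zinc finger classes were counted the same way, with no test against the CCCH probes. A20/AN1 proteins, a stress-associated family, had 4 positive and 4 negative calls of 14 probes in Apo and 3 and 5 in IR64, with medians of 0.0162 and -0.0679. OsSAP17 was the most positive of them in Apo, at 0.891 ± 0.126 (SD, n = 3, limma adjusted p = 0.000276). In IR64 it stood at 0.284 ± 0.211 (SD, n = 3, adjusted p = 0.0327), below OsSAP8 at 0.302. The OsSAP17 difference of 0.608 was not called (adjusted p = 0.0573). OsSAP16 and OsSAP15 were called negative in both genotypes, at -0.292 and -0.221 in Apo and -0.166 and -0.272 in IR64. The 5 probes found under ZFP names were all members of the A20/AN1 list too, and gave 1 positive and 1 negative call in each genotype. Of 3 Dof probes, DOF4 was called negative in Apo and IR64, at -0.619 ± 0.0188 and -0.564 ± 0.151, and DOF5 was called positive in Apo at 0.459 ± 0.150. Of 4 probes for LSD1-like proteins, 1 was called positive in Apo and 2 in IR64. No probe of these classes was called for the difference. From the list of RNA turnover and poly(A) proteins only OsPAB1, a poly(A)-binding protein, matched a tested probe. It stood at -0.135 ± 0.0282 in Apo (adjusted p = 0.0177) and -0.0245 ± 0.0666 in IR64 (adjusted p = 0.603).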
